A study of Rattus norvegicus with 9 samples.

Results

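The class II antigen presentation genes described here are the chain genes RT1-Da, RT1-Db1, RT1-Ba and RT1-Bb, the peptide loading genes RT1-DMa and RT1-DMb, the invariant chain gene Cd74 and the regulator gene Ciita. They were taken from a list of 8 class II genes, and all 8 were measured among the 14217 genes that a single-gene probe set of the array named. Each of 9 islet RNA samples from Wistar rats was hybridised to its own Affymetrix array (Rat Genome 230 2.0). The lean group was fed standard chow (4 arrays), and the obese group a cafeteria diet of high caloric content for 30 days (5 arrays). All islets were freed with collagenase directly after killing. The sources used here give neither the sex and age of the rats nor any pooling or batch, so a p-value speaks only of the spread among these samples, which may be technical in part.

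Class II molecules are pairs of an alpha and a beta chain that carry peptides to the cell surface, where CD4+ T cells read them. The invariant chain fills their groove in the endoplasmic reticulum, and after it has been cut to a short remnant the DM pair exchanges that remnant for a peptide. In the rat the RT1-B pair is the counterpart of human HLA-DQ and the RT1-D pair that of HLA-DR. In islets these genes are known mainly from the resident macrophages, dendritic cells and B cells. Their transcription depends on CIITA, a co-activator without a DNA-binding domain of its own, which joins the RFX and NF-Y factors on the X and Y boxes before the genes.

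The promoter sequences are shown because CIITA acts on the members through these boxes. A window from 250 bases before to 50 after the start site was found in RefSeq (GRCr8) for 6 of the 8 members, RT1-Da, RT1-Db1, RT1-Ba, RT1-Bb, RT1-DMa and Cd74. The search used 2 motifs on both strands. The first was CCAAT, the letters that NF-Y reads, which stand as ATTGG in a Y box. The second was GNNACNGATG, called the X core here, which holds the letters shared by the 10 bases that end in GATG ahead of the ATTGG in 4 members. Capitals mark the matches, in the direction of transcription.
RT1-Da: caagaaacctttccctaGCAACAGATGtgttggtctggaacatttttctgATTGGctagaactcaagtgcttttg
RT1-Db1: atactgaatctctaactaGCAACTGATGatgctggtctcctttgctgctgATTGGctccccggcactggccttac
RT1-Ba: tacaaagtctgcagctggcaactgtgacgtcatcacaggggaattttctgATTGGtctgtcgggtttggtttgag
RT1-Bb: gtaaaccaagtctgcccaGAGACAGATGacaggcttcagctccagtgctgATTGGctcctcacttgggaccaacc
RT1-DMa: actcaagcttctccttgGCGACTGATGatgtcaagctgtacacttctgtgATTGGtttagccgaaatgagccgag
Cd74: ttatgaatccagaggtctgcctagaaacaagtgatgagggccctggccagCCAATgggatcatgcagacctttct

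These stretches lie at chr20:4515316-4515390 on the plus strand (RT1-Da), chr20:4560218-4560292 on the minus strand (RT1-Db1), chr20:4576964-4577038 on the plus strand (RT1-Ba), chr20:4604155-4604229 on the minus strand (RT1-Bb), chr20:4712375-4712449 on the minus strand (RT1-DMa) and chr18:56526967-56527041 on the plus strand (Cd74) of GRCr8. RefSeq places 6 members on chromosome 20, Cd74 on chromosome 18 and Ciita on chromosome 10. In RT1-Da, RT1-Db1, RT1-Bb and RT1-DMa the X core was followed by ATTGG after 22 or 23 bases, and the X core began at positions -112 to -82 from the start site. Of all 33469 promoter windows in the table, 2.84% held the X core and 37.5% held CCAAT. The X core with ATTGG 10 to 30 bases after it stood in 22 windows (0.0657%), of which 10 belong to RT1 genes. Beside the 4 members these were the class II genes RT1-Db2 and RT1-DOb, which are not among the members, and the class I genes RT1-M3-1, RT1-CE10, RT1-CE5 and RT1-CE3. RT1-Ba and Cd74 matched CCAAT only. An X box with letters other than those shared by the 4 members would not match the X core. The search therefore does not show that RT1-Ba and Cd74 lack an X box. Since the X core was read from the members, its match in them is no result, and the shares in all windows show how rare it is. A match is a description of letters, not of binding.

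**Figure D1:**
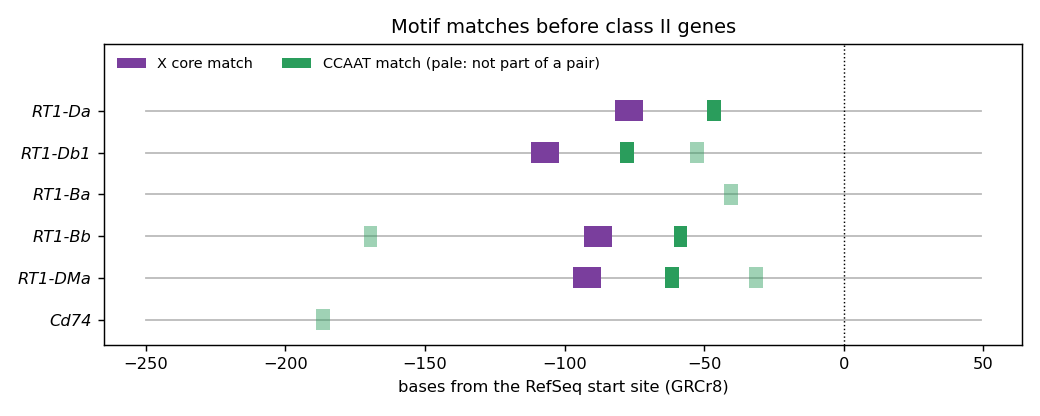
Positions of the motif matches in the windows of 6 class II genes, in bases from the RefSeq start site. The X core (purple) and the CCAAT letters (green) stand 22 or 23 bases apart in RT1-Da, RT1-Db1, RT1-Bb and RT1-DMa. RT1-Ba and Cd74 show a match to CCAAT alone, which does not show that they lack an X box.

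All 8 members had a lower mean in cafeteria than in lean islets (7 with array weights, where RT1-Ba differed by 0.0021), and Cd74 was the only member whose groups did not overlap. Of all 14217 genes, 49.2% had a lower cafeteria mean, and 0.837% were lower without overlap. The median difference over the members was -0.48 on the log2 scale, against 0.0025 over all genes. None of the members passed the test: by limma with Benjamini-Hochberg adjustment over 31042 probe sets, 0 of 8 reached an adjusted p of 0.05, as did 0% of all genes. At an unadjusted limma p under 0.05, 4 of the 8 members (Cd74, RT1-Da, RT1-Db1 and RT1-DMb) were lower, where 3.28% of all genes were, and 0 were higher, where 3.42% of all genes were. Over all 14 probe sets of the members, 13 had lower means and 5 were lower at an unadjusted limma p under 0.05, where 2.47% of all probe sets were. Lean replicate 3 had the highest value in 5 members, and it was the highest array in 10.7% of all genes. The lowest array was cafeteria replicate 3 in 4 members, where it was the lowest in 18.8% of all genes, and cafeteria replicate 1 in the other 4, where it was the lowest in 9.75% of all genes. Without lean replicate 3 all 8 means were still lower, the median difference was -0.23, and 3 members (Cd74, RT1-Da and RT1-Db1) kept an unadjusted limma p under 0.05. The shares of all genes without that array are not given here. In RNA of whole islets, fewer cells that carry these transcripts and less RNA per cell cannot be told apart.

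**Figure D2:**
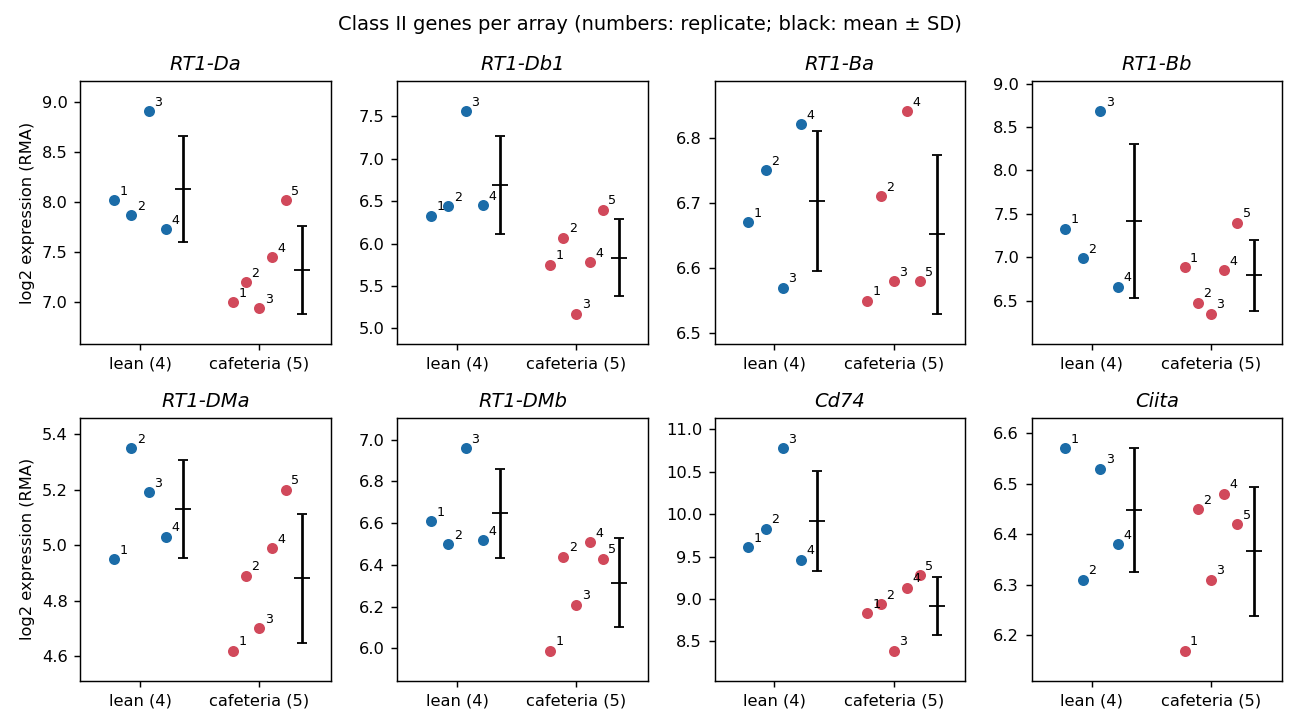
Log2 expression (RMA) of the 8 class II genes in every array, with lean islets in blue (4) and cafeteria islets in red (5). Numbers are replicates and black marks are the mean ± SD. Lean replicate 3 is the highest array in RT1-Da, RT1-Db1, RT1-Bb, RT1-DMb and Cd74, and the groups separate only in Cd74.

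The invariant chain gene Cd74 read 9.61, 9.83, 10.78 and 9.46 in lean replicates 1 to 4, and 8.83, 8.94, 8.39, 9.13 and 9.28 in cafeteria replicates 1 to 5. Every cafeteria array lay below every lean array, with 9.28 in cafeteria replicate 5 and 9.46 in lean replicate 4 closest to each other. The lean mean was 9.92 ± 0.59 (SD, n = 4) and the cafeteria mean 8.91 ± 0.34 (n = 5). This difference of -1.01 (SE 0.26, 95% interval -1.58 to -0.43) put the cafeteria level at 49.8% of the lean level. The adjusted p by limma was 0.844 and the exact permutation p 0.00794, the smallest that splits of 4 against 5 arrays can give. Without lean replicate 3, which stood 0.94 above the next array, the difference was -0.72, and over all 9 omissions it lay between -1.16 and -0.72. By unadjusted p, Cd74 ranked 39 among all genes, and 17 genes, itself included, were lower by as much or more.

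In both chains of the D pair a single cafeteria array reached the lean range. RT1-Da, the alpha chain, read 8.02, 7.87, 8.91 and 7.73 in the lean arrays, and 7.0, 7.20, 6.94, 7.45 and 8.02 in the cafeteria arrays. Cafeteria replicate 5 lay among the lean values, and the other 4 cafeteria arrays lay below all of them. The lean mean of 8.13 ± 0.53 (SD, n = 4) and the cafeteria mean of 7.32 ± 0.44 (n = 5) gave a difference of -0.81 (SE 0.27; limma, adjusted p = 0.844; exact permutation p = 0.0397). Without lean replicate 3 the difference was -0.55. This gene had a single probe set.

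RT1-Db1, the beta chain of that pair, was measured by 2 probe sets. The brighter read 6.33, 6.44, 7.56 and 6.45 in lean and 5.75, 6.07, 5.17, 5.78 and 6.40 in cafeteria islets, so that again only cafeteria replicate 5 reached the lean range. Its means were 6.69 ± 0.58 (SD, n = 4) and 5.83 ± 0.45 (n = 5), a difference of -0.86 (SE 0.29; limma, adjusted p = 0.844; exact permutation p = 0.0238). The omission of lean replicate 3 brought it to -0.57. RT1-Db2 is a close relative of this gene, and the suffix of this probe set (_s_at) marks sets that can match several transcripts, so the signal may hold both. The other probe set, designed on the same sequence record, lay between 4.39 and 4.74 in all arrays, below the array medians of 5.28 to 5.32, and differed by -0.07 (SE 0.09).

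For RT1-Ba, the alpha chain of the B pair, the result turned on the probe set. Its brightest set read 6.67, 6.75, 6.57 and 6.82 in lean and 6.55, 6.71, 6.58, 6.84 and 6.58 in cafeteria islets, with full overlap of the groups. The difference was -0.05 (SE 0.08, 95% interval -0.24 to 0.14; limma, adjusted p = 0.936), and it was 0.0021 with array weights, so no direction is given for this set. RT1-Ba probe set 2, of nearly the same mean, read 6.49, 7.22, 7.27 and 6.58 in lean and 6.05, 6.22, 5.55, 6.34 and 6.60 in cafeteria islets. There 4 of 5 cafeteria arrays lay below every lean array. The difference was -0.74 (SE 0.23; limma, adjusted p = 0.844; exact permutation p = 0.0317), and -0.61 without lean replicate 3. RT1-Ba probe set 3 differed by -0.32 (SE 0.18) and RT1-Ba probe set 4, designed on the same sequence record as the brightest set, by 0.05 (SE 0.08). The mean of the 4 sets differed by -0.27 (SE 0.08; limma, adjusted p = 0.686).

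RT1-Bb, the beta chain of the B pair, read 7.33, 6.99, 8.68 and 6.66 in lean and 6.89, 6.48, 6.35, 6.85 and 7.40 in cafeteria islets by its brighter probe set. Lean replicate 3 alone stood above all cafeteria arrays, by 1.28. The means were 7.42 ± 0.89 (SD, n = 4) and 6.80 ± 0.41 (n = 5), and the difference of -0.62 (SE 0.36; limma, adjusted p = 0.845; exact permutation p = 0.206) was -0.20 without that array. RT1-Bb probe set 2 gave another order: it read 4.86, 5.62, 4.14 and 5.58 in lean and 3.68, 4.86, 3.95, 4.79 and 4.84 in cafeteria islets. In this set lean replicate 3 was the lowest lean array and lean replicates 2 and 4 the highest of all. The difference was -0.62 (SE 0.35; limma, adjusted p = 0.844), and -0.93 without lean replicate 3.

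**Figure D3:**
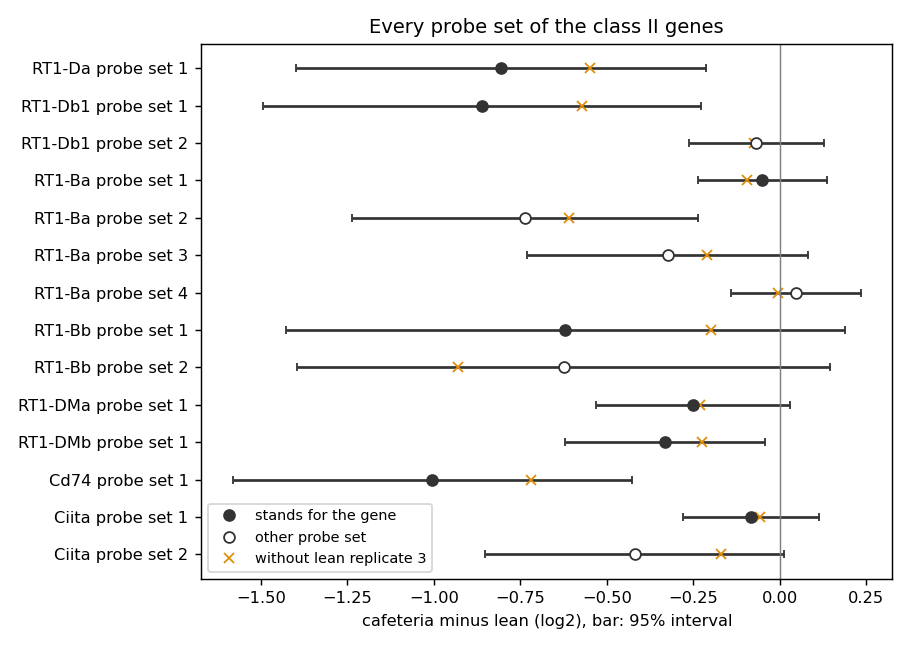
Difference of cafeteria minus lean islets (log2) for each of the 14 probe sets of the class II genes, with 95% intervals of the limma fit. Filled points stand for the gene, open points are its other sets, and crosses give the difference without lean replicate 3. All but RT1-Ba probe set 4 lie below 0, and the sets of RT1-Ba spread from -0.74 to 0.05.

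RT1-DMa, the alpha chain of the DM pair, read 4.95, 5.35, 5.19 and 5.03 in lean and 4.62, 4.89, 4.70, 4.99 and 5.20 in cafeteria islets. Cafeteria replicates 4 and 5 overlapped the lean arrays, and lean replicate 2 was the highest. Its mean was 5.13 ± 0.18 (SD, n = 4) against 4.88 ± 0.23 (n = 5), a difference of -0.25 (SE 0.13; limma, adjusted p = 0.844; exact permutation p = 0.119). Both means lay below the array medians, where RMA compresses differences.

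RT1-DMb, the beta chain, read 6.61, 6.50, 6.96 and 6.52 in lean and 5.99, 6.44, 6.21, 6.51 and 6.43 in cafeteria islets. The groups overlapped by the narrow margin between cafeteria replicate 4 (6.51) and lean replicate 2 (6.50). The means were 6.65 ± 0.22 (SD, n = 4) and 6.31 ± 0.21 (n = 5), and the difference was -0.33 (SE 0.13; limma, adjusted p = 0.844; exact permutation p = 0.0238). It was -0.23 without lean replicate 3.

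Ciita, the co-activator, read 6.57, 6.31, 6.53 and 6.38 in lean and 6.17, 6.45, 6.31, 6.48 and 6.42 in cafeteria islets by its brighter probe set. The groups overlapped widely, and the difference of -0.08 (SE 0.09, 95% interval -0.28 to 0.11) did not pass the test (limma, adjusted p = 0.888; exact permutation p = 0.349). Ciita probe set 2 was dim, between 3.96 and 4.37 in all arrays but lean replicate 3, which read 5.26. Its difference of -0.42 (SE 0.20; limma, adjusted p = 0.844) was -0.17 without that array.

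**Figure D4:**
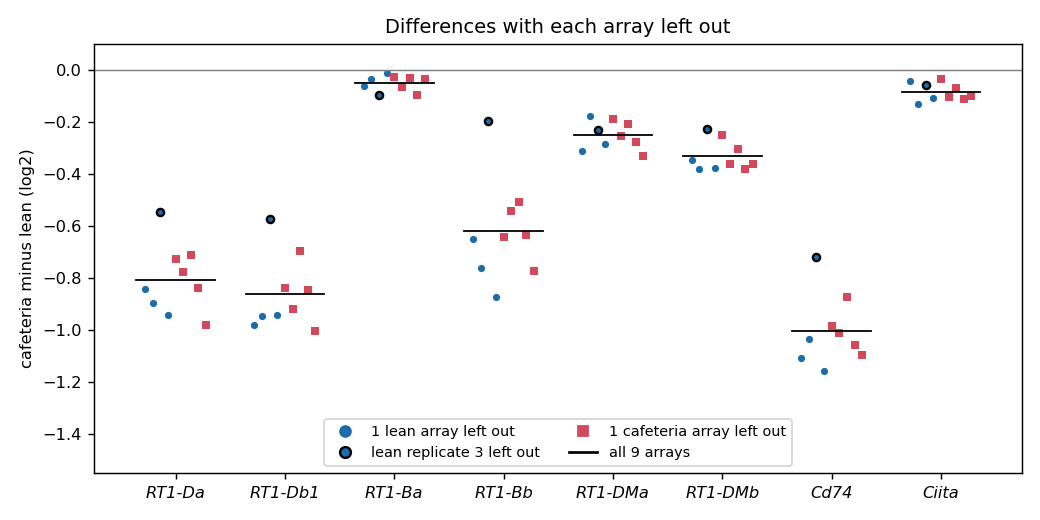
Difference of cafeteria minus lean islets (log2) for each class II gene with all 9 arrays (black line) and with each array left out in turn (blue circles for lean, red squares for cafeteria arrays). Outlined circles leave out lean replicate 3. Every point lies below 0, and that omission brings RT1-Bb from -0.62 to -0.20.

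Over the 9 arrays Pearson's r was 0.83 or more between RT1-Da, RT1-Db1, RT1-Bb, RT1-DMb and Cd74, except RT1-Bb with RT1-DMb (0.73). Lean replicate 3 was the highest array in these 5 members. RT1-Bb had r of 0.69 with RT1-Da, 0.41 with Cd74, 0.34 with RT1-Db1 and 0.15 with RT1-DMb without lean and cafeteria replicates 3. Over all members, Pearson's r was positive in 25 of 28 pairs, with a median of 0.71, and 11 pairs passed an exact permutation test after Benjamini-Hochberg adjustment over the 28 (3 by Spearman's rho). The closest pair was RT1-Db1 with Cd74, at r = 0.96 (exact permutation p = 0.000248, adjusted 0.00347) and rho = 0.90 (exact permutation p = 0.00203, adjusted 0.0284). It kept r = 0.80 without lean replicate 3 and cafeteria replicate 3, the arrays farthest from the median. RT1-Da with Cd74 gave r = 0.95 (exact permutation p = 0.000223, adjusted 0.00347), rho = 0.92 (exact permutation p = 0.00131, adjusted 0.0284) and r = 0.84 without those arrays. RT1-DMb and Ciita gave r = 0.82 (exact permutation p = 0.00746, adjusted 0.0232) and rho = 0.80 (exact permutation p = 0.0138, adjusted 0.0553), with r = 0.66 without lean replicate 3 and cafeteria replicate 1. RT1-DMb was the only member with which Ciita passed: its r was 0.41 to 0.63 with RT1-Da, RT1-Db1, RT1-Bb, RT1-DMa and Cd74. RT1-DMa passed only with RT1-Da (r = 0.76). Without the 2 farthest arrays its r was 0.69 to 0.77 with RT1-Da, RT1-Db1, RT1-DMb and Cd74. It was 0.33 to 0.48 with RT1-Bb, RT1-Ba and Ciita. The brightest RT1-Ba set passed with no member, at r of -0.37 to 0.31. Over all pairs the median r was 0.46 without the 2 farthest arrays and 0.56 with the group means subtracted, so part of the shared pattern lay within the groups.

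The second probe sets were set against Cd74 and against the brightest set of their own gene, 12 pairs in all. RT1-Ba probe set 2 followed Cd74 closely, with r = 0.93 (exact permutation p = 0.000204, adjusted over the 12 pairs 0.00245), rho = 0.93 (exact permutation p = 0.00075, adjusted 0.009) and r = 0.90 without the 2 farthest arrays. With the brightest RT1-Ba set its r was 0.19 (exact permutation p = 0.62, adjusted 0.742; rho = 0.15, exact permutation p = 0.708, adjusted 0.944; r = 0.34 without the 2 farthest arrays). RT1-Bb probe set 2 gave r = -0.17 with the brighter RT1-Bb set (exact permutation p = 0.68, adjusted 0.742; rho = -0.0167, exact permutation p = 0.982, adjusted 0.982; r = -0.0839 without the 2 farthest arrays). None of the other pairs passed either test.

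Lists of genes around the pathway had median differences near 0. The list counts below at an unadjusted limma p under 0.05 stand beside 3.28% of all genes lower and 3.42% higher. Of 14 measured genes of class II peptide processing, such as the lysosomal proteases Ctss and Ctsb and the protease inhibitor Cst3, 12 had a lower cafeteria mean and 0 an unadjusted limma p under 0.05. Their median was -0.0716, with the smallest p in Ctsb (-0.17, SE 0.09), Cst3 (-0.25, SE 0.16) and Lamp1 (-0.09, SE 0.09), whose other 2 probe sets had the opposite sign. Of 13 class II transcription factors 8 had lower means, with a median of -0.0069 and 2 at an unadjusted p under 0.05, all on the lower side. These were Irf1 (-0.38, SE 0.13), an interferon-responsive factor, and Rfxap (-0.23, SE 0.10), a subunit of the RFX complex on the X box. Irf8, a factor of myeloid and B cells, differed by -0.43 (SE 0.20), and by -0.18 without lean replicate 3. In the interferon gamma list 9 of 10 means were lower (median -0.063), with Irf1 and Jak1 (-0.22, SE 0.10) at an unadjusted p under 0.05. Costimulation genes had 6 of 9 lower (median -0.0336), of which Cd40lg (-0.21, SE 0.09) had an unadjusted p under 0.05. None of the genes in these lists had an adjusted p under 0.05, and 5 further class II chain genes of the list (such as RT1-DOa) were not matched to a single-gene probe set.

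Class I presentation genes had no common direction, with 10 of 19 means lower and a median of -0.0013. Of them 4 had an unadjusted limma p under 0.05, all lower. Psmb8 (-0.36, SE 0.11) and Psmb9 (-0.57, SE 0.25), subunits of the immunoproteasome whose genes lie in the class II region, were among these, as was RT1-N3 (-0.34, SE 0.14). Psmb9 read 7.58 in lean replicate 3 and 5.62 in cafeteria replicate 3, with 6.53 to 6.95 in the other arrays, and its difference was -0.38 without the former and -0.36 without the latter. Psmb8 was lower without overlap between the groups, as were 0.837% of all genes.

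Most markers of white blood cells had lower cafeteria means, and most of their lists, like the class II genes, were highest in lean replicate 3. Their part in the class II differences was not tested. Each list is given as a score, the mean over its genes of the log2 difference from the 9-array mean. The class II score was 0.79 in lean replicate 3, 0.02 to 0.15 in the other lean arrays and -0.53 to 0.11 in the cafeteria arrays. Pan-leukocyte markers had 11 of 12 lower means (5 of them at an unadjusted limma p under 0.05) and a median of -0.53, or -0.25 without lean replicate 3. Their score was 1.31 in lean replicate 3, -0.18 to 0.14 in the other lean arrays and -0.47 to -0.12 in the cafeteria arrays, and their summed log2 level was 63.5 to 81.4 in lean and 60.1 to 64.3 in cafeteria islets. In the cafeteria arrays the class II score ran from -0.53 to 0.11 and the macrophage score from -0.23 to 0.10. Both were highest in cafeteria replicate 5. The class II score was lowest in cafeteria replicate 3, where the macrophage score was -0.10. The macrophage score was lowest in cafeteria replicate 1, where the class II score was -0.38. The B cell score ran from -0.29 to -0.16 and the T and NK cell score from -0.14 to -0.07. Several genes of these 2 lists were dim there, where RMA compresses differences. The cafeteria means were 4.26 for Fcmr and Cr2, 4.55 for Cd79b, 4.08 for Cd3d and 4.29 for Cd5, while Lck had 5.78. Coro1a, an actin-binding protein of leukocytes, differed by -1.41 (SE 0.46), and by -0.78 without that array.

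B cell markers were lower in 8 of 8 means (3 at an unadjusted limma p under 0.05), with a median of -0.32, or -0.17 without lean replicate 3, and a score of 1.08 in that array against -0.29 to 0.12 in all others. Their summed log2 level was 37.6 to 47.0 in lean and 36.1 to 37.1 in cafeteria islets. Fcmr, the IgM receptor, read 7.44 in lean replicate 3, 4.43 to 5.30 in the other lean arrays and 4.06 to 4.37 in cafeteria islets. T and NK cell markers were lower in 15 of 17 means (0 at an unadjusted p under 0.05), with a score of 0.68 in lean replicate 3 and -0.14 to 0.02 elsewhere, and a summed level of 75.9 to 89.1 in lean and 75.1 to 76.3 in cafeteria islets. Lymph node markers were lower in 8 of 9 (2 at an unadjusted p under 0.05), and their score was 1.22 in lean replicate 3 and -0.32 to 0.20 elsewhere. Their summed level was 42.9 to 55.4 in lean and 41.5 to 42.4 in cafeteria islets. Ltb, lymphotoxin beta, differed by -0.92 (SE 0.26), and by -0.57 without that array.

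Macrophage markers, of the cell type that carries most class II in islets, were lower in 14 of 17 means (4 at an unadjusted limma p under 0.05), with a median of -0.16, or -0.14 without lean replicate 3. Their score spanned 0.01 to 0.21 in lean and -0.23 to 0.10 in cafeteria islets, with lean replicate 3 and cafeteria replicate 1 at the ends, and the summed level was 92.3 to 95.7 and 88.1 to 93.9. Lyz2, lysozyme, differed by -0.56 (SE 0.20), C1qc, a complement chain, by -0.38 (SE 0.16) and Fcer1g, an Fc receptor chain, by -0.30 (SE 0.14). Of the dendritic cell markers 5 of 8 means were lower (0 at an unadjusted p under 0.05), the median was -0.0345, and the score lay between -0.06 and 0.07 in all arrays, with a summed level of 37.1 to 37.9 in lean and 37.2 to 38.2 in cafeteria islets. Itgax and Flt3 of this list were dim, with lean means of 4.87 and 4.34, and Itgae was brighter, at 6.12. Their differences were 0.14 (SE 0.08) for Itgax, -0.08 (SE 0.09) for Flt3 and 0.07 (SE 0.08) for Itgae.

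**Figure D5:**
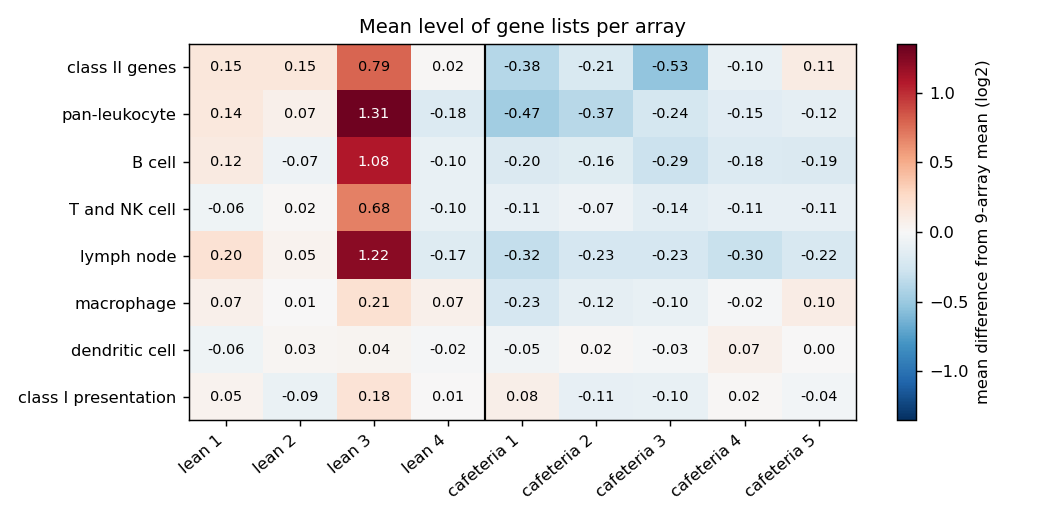
Mean log2 difference from the 9-array mean for class II genes and 7 other lists (rows) in each array (columns), with lean arrays left of the line. Lean replicate 3 is the highest array in 7 of the 8 lists, from 1.31 in pan-leukocyte to 0.18 in class I genes, while dendritic cell markers stay between -0.06 and 0.07.

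The islet label was borne out by the hormone genes: Ins1 had means of 13.43 in both groups, Ins2 14.19 in both, and Iapp 13.92 in lean and 13.98 in cafeteria islets. Other cells of the pancreas varied between arrays. Acinar markers had 12 of 13 higher means (median 0.56, score -1.12 to 0.71 over the arrays) and ductal markers 6 of 8 lower means (median -0.22, score -0.43 to 0.86). Endothelial markers had 9 of 11 lower means (median -0.10), beta cell markers 5 of 8 (median -0.0146) and markers of the other islet cells 8 of 8 (median -0.23). The actin and Gapdh controls, whose 3-prime minus 5-prime difference rises as RNA breaks down, averaged 1.42 to 1.80 in lean and 1.21 to 1.74 in cafeteria arrays. With this measure as a covariate the Cd74 difference was -1.02 (SE 0.27; limma, adjusted p = 0.344).

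Genes whose pattern over the 9 arrays was most like the mean of the members were sought among 7078 named genes brighter than the median gene. The leading gene was Lcp1, an actin-bundling protein of leukocytes (r = 0.94), followed by Zbtb18 (0.93), Zyx (0.91), Ets1 (0.90), Arhgdib (0.88), Npas2 (0.88), Irf2bp2 (0.88), Fyttd1 (0.86), Apoe (0.86) and Icam2 (0.86). These values of r describe the ranking and carry no test. With the group means subtracted, Lcp1, Zbtb18, Zyx and Ets1 were again among the first 10. Without lean replicate 3 these 4 had r of 0.72 to 0.86. The rest of that ranking, led by Ccn1 (r = 0.98), had r of only -0.36 to 0.63 over the 9 arrays with group means kept. Their r was -0.46 to 0.45 without lean replicate 3. Apoe, an apolipoprotein that macrophages make in quantity, had a lean mean of 8.54 ± 0.43 (SD, n = 4) and a cafeteria mean of 7.86 ± 0.23 (n = 5), a difference of -0.69 (SE 0.19; limma, adjusted p = 0.844).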

How the data were processed

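The table deposited by the authors holds log2 expression values per probe set, 1 column per array, made with RMA; R 2.7.0 and affy 2.0.1 stand beside it in the submitters' processing notes. RMA makes the arrays' distributions alike and gives no detection call. With 9 arrays, the median SE of a difference was 0.0980 log2, which limits the precision.

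The 57 control probe sets were left out, which left 31042. The platform annotation gave 20826 of these a single gene (14217 genes), and 436 several. A gene was read from its probe set of highest mean over all arrays. Differences are cafeteria minus lean, from limma 3.58.1 (R 4.3.3; lmFit and eBayes, two-sided, no covariate), with Benjamini-Hochberg adjustment over all 31042 and a threshold of 0.05. Single values also had a two-sided exact permutation test. The fit was tested on simulated data. Python 3.11.15 with scipy 1.17.1 made the other values.

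The members and 17 other gene lists were chosen with earlier results of these data known. Named genes were the members, the 3 genes of smallest p per list (those a result turns on are printed), the islet hormones, and the 10 genes of likest pattern. Values of other genes are given as chosen after they were seen. The alternatives were other scalings, eBayes settings, weights, a brightness filter, an RNA quality covariate, other probe set rules, a threshold of 0.10 and omission of each array.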

Additional observations from a re-analysis of the deposited data

Results flagged for a closer look

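A value far from the others of its own group was sought in 156 groups (78 items: the 14 probe sets, 47 named genes and 17 list scores, each in lean and in cafeteria islets). It was found 20 times, where chance gives about 1 in 20, and 9 of the 20 were high values of lean replicate 3. Many of these items share genes or cells and are not independent.

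Among the class II genes this was RT1-Db1 (7.56 in lean replicate 3, next lean value 6.45) and the class II score (0.79, next 0.15). The other high values of lean replicate 3 were Coro1a (8.09), Psmb9 (7.58), Lck (7.37), Cd79b (6.40), Irf8 (6.15), the T and NK cell score (0.68) and the score of class II transcription factors (0.19).

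Other lean values apart from their group were Irf1 in lean replicate 4 (7.74, low) and Itgax in lean replicate 1 (4.94, high). In cafeteria islets the low values were Ctsb (11.17) and Cd5 (3.89) in replicate 3, Cd86 (3.74) and Bhlha15 (7.09) in replicate 2, Arhgdib in replicate 1 (7.31), and Cela3b (4.84) and the acinar score (-1.12) in replicate 5. The high ones were Cr2 in replicate 4 (4.36) and the beta cell score in replicate 1 (0.10).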

How the results depend on the processing

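Of 143 differences of single members under the alternatives, 142 kept their direction and 0 passed the threshold (adjusted limma p 0.344 to 0.997). The exception was RT1-Ba, at 0.0021 with array weights. The median difference of the members was -0.48, and -0.62 to -0.23 with an array left out. It was -0.68 with the probe set of highest spread per gene and -0.62 among the brighter probe sets, which dropped RT1-DMa. By the mean of all sets 6 members had an unadjusted limma p under 0.05, in place of 4. The share of all genes under that rule is not given here. Among 183 measured genes of the other lists, 25 were lower at an unadjusted limma p under 0.05, where 3.28% of all genes were. This count moved to 12 among the brighter probe sets, a fit without the dimmer listed genes. With an array left out it was 12 to 36. It was 14 without cafeteria replicate 2 or 3 and 12 without cafeteria replicate 4. The cause of these moves was not tested. The shares of all genes called under the alternatives are not given here, so these counts have no background beside them. The median r between members was 0.62 to 0.74 with an array left out. No paired analysis was made, because the labels give no pairing of lean with cafeteria rats. The replicate numbers used here follow the order of the samples in the series and do not come from the labels.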

Other observations

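Some class I genes of the RT1 complex varied strongly between arrays, RT1-T24-4 in both groups and RT1-CE12 mainly in lean islets. These genes were chosen after their values were seen. RT1-T24-4 read 6.70 in lean replicate 2, 7.64 in lean replicate 4 and 7.20 in cafeteria replicate 2, and 3.24 to 4.66 in the other 6 arrays. RT1-CE10 read 7.57 in lean replicate 2 and 8.56 to 10.29 in the others, and RT1-CE12 read 9.07 in that array and 9.95 to 10.59 in the others. Lean replicates 2 and 4 were also the highest arrays in RT1-Bb probe set 2, at 5.62 and 5.58. Cafeteria replicate 2 read 4.86 in that set, as did lean replicate 1. RT1-M3-1 lay between 8.04 and 8.48 in all arrays. The haplotype of the rats is not given in the sources used here, and the match of the probes to their alleles was not tested.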
